A study of Mus musculus with 8 samples.

Results

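Bone morphogenetic proteins (BMPs) are secreted growth factors, and a set of secreted proteins binds them outside the cell and limits or shapes their action. 10 such genes, of 28956 genes in the tables, were followed in stromal cells of mouse femurs, either healing from a fracture or intact. They were chosen with earlier results of these data known, as 5 ligands (Bmp2, Bmp4, Bmp5, Bmp6 and Gdf10) and 5 antagonists or modulators (Nog, Grem1, Chrdl1, Chrdl2 and Bmper). All 10 were found. The Fracture group came from C57BL/6 females whose left leg was broken at 10 weeks and held by an intramedullary nail, and femurs were taken at day 14 after fracture, when callus cartilage is being turned into bone. The Fracture females were also given ketamine with xylazine as anesthetic and carprofen as analgesic. The Control group came from unfractured wild-type C57BL/6 females of 12 weeks, the age of the Fracture females at collection. The study describes no nail or drug for the Control group, so fracture, nail and drugs cannot be told apart. In both groups blood lineage cells and cells carrying CD45 or CD117 had been depleted with magnetic beads before encapsulation. The labels number 2 samples within each group, each with a rep1 and a rep2. These were read as 2 cell preparations per group with 2 droplet libraries each, which the labels do not state. The 2 libraries of a preparation were summed, so that n = 2 per group throughout. The labels give neither the number of animals behind a preparation nor whether preparations came from separate animals, so p-values measure the spread between preparations only.

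BMPs bind pairs of type I and type II serine/threonine kinase receptors, which phosphorylate the transcription factors Smad1, Smad5 and Smad9, and these enter the nucleus together with Smad4. BMP2 is required in limb bones for fracture repair, and BMP2, BMP4 and BMP6 can induce bone and cartilage. Noggin (Nog), gremlin 1 (Grem1) and the chordin-like proteins (Chrdl1, Chrdl2) bind ligands and keep them from their receptors, while Bmper, which carries chordin-like cysteine-rich repeats, can act as inhibitor or as helper of BMP action depending on its amount.

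The 10 genes lie apart in the genome (GRCm38 with GENCODE M21, all protein coding). Bmp2 lies on chromosome 2 at 133552159 to 133562885 on the plus strand, and Grem1 on the same chromosome at 113746164 to 113758646 on the minus strand. Bmp4 (chromosome 14, 46383520 to 46390669, minus strand) and Gdf10 (chromosome 14, 33923587 to 33937983, plus strand) share a chromosome, as do Bmp5 (chromosome 9, 75775364 to 75900310, plus strand) and Bmper (chromosome 9, 23223076 to 23485200, plus strand). Bmp6 was found on chromosome 13 (38345107 to 38500302, plus strand) and Nog on chromosome 11 (89300638 to 89302332, minus strand). Chrdl1 lies on the X chromosome (143285674 to 143394262, minus strand) and Chrdl2 on chromosome 7 (100006172 to 100034728, plus strand).

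Of the 10 genes, 6 had a promoter window in the RefSeq table (GRCm38.p6). All 6 were called lower in BMSC-like cells after fracture, where 21.6% of all genes tested were, as were Nog and Chrdl1, which had no window. In chondrocyte-like cells Bmper was called higher, and Bmp5 and Gdf10 lower, against 19.6% and 18.3% of all genes. The 250 bases before the RefSeq start of each of the 6 are shown. The RefSeq start of Bmp6 lies inside the GENCODE gene given above. They are written 5′ to 3′ on the strand of the gene, with capitals marking matches on either strand to the GC box GGGCGG (or CCGCCC) or to the palindrome GGCGCC, a GC-rich element that BMP-activated Smads can bind.
Bmp4 (chr14:46390670-46390919, minus strand): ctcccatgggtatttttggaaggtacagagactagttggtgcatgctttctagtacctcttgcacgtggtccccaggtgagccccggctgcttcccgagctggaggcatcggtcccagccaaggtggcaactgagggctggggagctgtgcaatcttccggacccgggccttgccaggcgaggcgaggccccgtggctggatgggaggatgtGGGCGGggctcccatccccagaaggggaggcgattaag
Bmp5 (chr9:75775115-75775364, plus strand): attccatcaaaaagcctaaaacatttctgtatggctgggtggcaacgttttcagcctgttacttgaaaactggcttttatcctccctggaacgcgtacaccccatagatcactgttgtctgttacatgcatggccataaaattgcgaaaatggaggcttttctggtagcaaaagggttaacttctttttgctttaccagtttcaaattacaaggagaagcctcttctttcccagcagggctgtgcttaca
Bmp6 (chr13:38345466-38345715, plus strand): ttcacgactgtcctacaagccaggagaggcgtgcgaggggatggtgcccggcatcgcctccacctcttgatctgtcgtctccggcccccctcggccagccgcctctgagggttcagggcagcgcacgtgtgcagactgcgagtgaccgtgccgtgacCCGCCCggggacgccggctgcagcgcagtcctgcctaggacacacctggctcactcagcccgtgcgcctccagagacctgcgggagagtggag
Gdf10 (chr14:33923337-33923586, plus strand): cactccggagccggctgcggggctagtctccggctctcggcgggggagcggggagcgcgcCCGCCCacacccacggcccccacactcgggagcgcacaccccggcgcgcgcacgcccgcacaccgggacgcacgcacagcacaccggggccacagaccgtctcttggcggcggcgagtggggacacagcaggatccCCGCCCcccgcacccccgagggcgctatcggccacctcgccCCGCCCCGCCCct
Grem1 (chr2:113758649-113758898, minus strand): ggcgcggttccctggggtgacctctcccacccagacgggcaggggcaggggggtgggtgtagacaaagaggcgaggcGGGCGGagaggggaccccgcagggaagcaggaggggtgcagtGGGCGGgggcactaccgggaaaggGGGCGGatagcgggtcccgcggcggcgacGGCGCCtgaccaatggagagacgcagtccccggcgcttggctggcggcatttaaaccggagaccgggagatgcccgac
Bmper (chr9:23222826-23223075, plus strand): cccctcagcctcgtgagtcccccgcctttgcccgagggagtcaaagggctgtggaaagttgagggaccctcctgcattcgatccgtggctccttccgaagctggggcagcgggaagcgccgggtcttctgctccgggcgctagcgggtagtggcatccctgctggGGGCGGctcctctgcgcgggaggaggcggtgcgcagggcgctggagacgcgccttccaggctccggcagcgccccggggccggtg
The GC box was present 4 times before Gdf10, 3 times before Grem1 and 1 time each before Bmp4, Bmp6 and Bmper, and was absent before Bmp5, and 32.9% of the 27025 genes with such a window held it. GGCGCC was found 1 time, before Grem1, against 9.54% of all windows, and no window of the 6 held TATAAA, which 13% of all windows held. The GC content was 63.2% for Bmp4, 68.8% for Bmp6, 78.8% for Gdf10, 72% for Grem1 and 71.6% for Bmper, above the median of 52% over all windows, and 42.8% for Bmp5, below it. The matches are letters in these windows and not measured binding.

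The 8 libraries held 56543151 to 89126291 UMIs (unique molecular identifiers, each standing for 1 captured transcript), and 45328 of 48903 barcodes were kept as cells. Clusters were named from marker genes, and the 10 genes and the other BMP pathway genes were kept out of the genes that formed them, so that no member was used to form them. 38053 cells fell into 6 classes outside the blood. All 8 detected chondrocyte markers (Acan, Col2a1 and others) were carried by at least 1 chondrocyte-like cluster, 6 of 7 osteoblast markers by osteoblast-like cells, 7 of 7 BMSC (bone mesenchymal stromal cell) markers such as Cxcl12 and Lepr by at least 1 BMSC-like cluster, 6 of 7 fibroblast markers by fibroblast-like cells, and 6 of 6 by endothelial-like and by smooth muscle-like cells. By preparation, Control then Fracture, 24.2% and 14.7% against 59.1% and 57.8% of these cells were chondrocyte-like, and 28.3% and 34.1% against 5.29% and 5.40% were BMSC-like. The median cell of the Control group held 7711 UMIs and that of the Fracture group 11351, and the smallest deposited barcode held 1 to 3 UMIs in the Control and 1929 to 2724 in the Fracture libraries, so the barcodes of the groups had not been chosen at the same depth. Levels are given in CPM (UMIs of a gene in a class and preparation, scaled to 1e+06 UMIs of that class and adjusted by TMM). Summed marker levels and values over all cells outside the blood were not adjusted by TMM.

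First, the cells in which each transcript was found were compared. In Control, BMSC-like cells held the largest share of the UMIs of 6 of the 10 genes, and after fracture a different class held it for these 6. The same count was not made over all genes. Of the Grem1 UMIs outside the blood, 91.3% and 96.7% were in BMSC-like cells in Control and 12.8% and 16.3% in Fracture, where chondrocyte-like cells held 64.6% and 60.1%. Of the Chrdl1 UMIs, BMSC-like cells held 58.3% and 77.9% in Control and 1.64% and 2.18% in Fracture, and chondrocyte-like cells 93.9% and 93.2% in Fracture. Bmp6 went from 69.9% and 82.5% in BMSC-like cells to 88.4% and 86.0% in chondrocyte-like cells, Bmper from 57.7% and 76.8% to 85.2% and 84.5%, and Bmp5 from 59.6% and 68.9% to 66.8% and 63.6%. Bmp4 moved elsewhere: BMSC-like cells held 68.8% and 82.5% in Control, while in Fracture osteoblast-like cells held 29.9% and 27.0%, endothelial-like cells 24.7% and 29.9% and BMSC-like cells 19.9% and 18.5%. Among the classes outside the blood, chondrocyte-like cells led in both groups for the other 4 genes, with Bmp2 at 43.4% and 40.4% in Control against 85.01% and 84.2% in Fracture, Gdf10 at 67.0% and 58.5% against 92.0% and 90.1%, Nog at 85.5% and 78.2% against 95.4% and 94.8%, and Chrdl2 at 84.5% and 87.7% against 97.1% and 97.5%. With the blood classes counted too, chondrocyte-like cells held 26.2% and 30.4% of the Bmp2 UMIs in Control, and in Control replicate 1 megakaryocyte-like cells held more of them (3024 UMIs against 2040). These shares join the number of cells of a class with the level per cell. Chondrocyte-like cells were 24.2% and 14.7% of the cells of the 6 classes in Control and 59.1% and 57.8% in Fracture. For Bmp5, Gdf10, Nog and Chrdl1 the chondrocyte-like share was larger in Fracture although their level in these cells was lower, as given below.

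**Figure D1:**
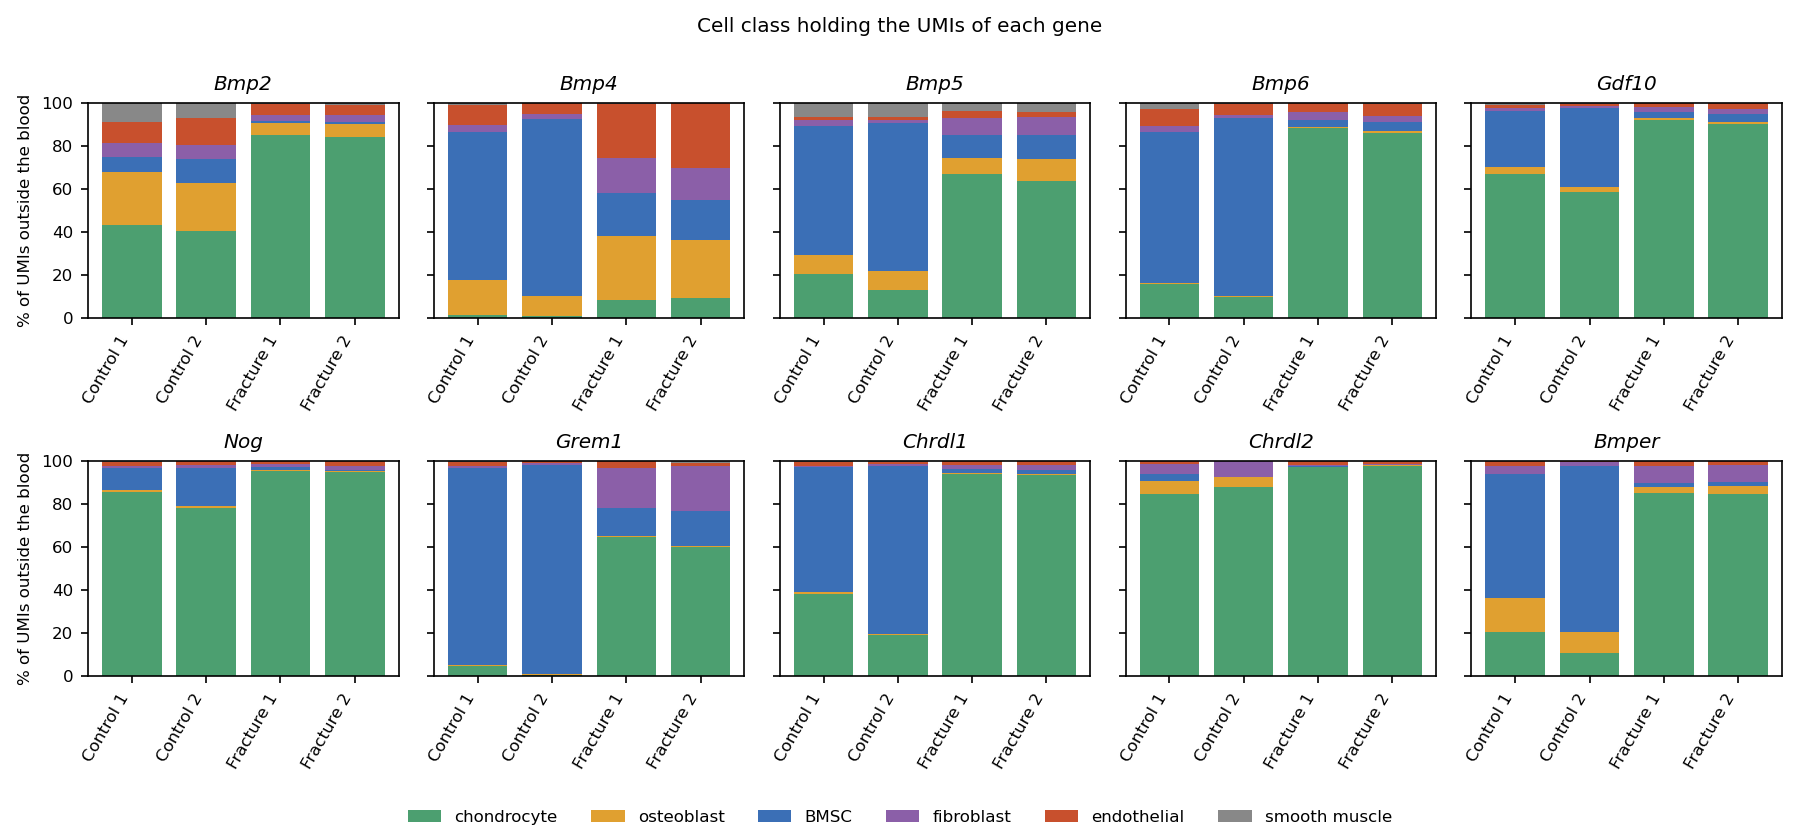
Share of the UMIs of each gene outside the blood (y axis, percent) held by each of the 6 cell classes (colors), for the 2 Control and 2 Fracture preparations (x axis, 1 stacked bar each). The BMSC-like part of the Grem1 bars is 91.3% and 96.7% in Control and 12.8% and 16.3% in Fracture. The chondrocyte-like part is larger in Fracture for every gene shown, and chondrocyte-like cells were also a larger part of the cells there.

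Next, the level of each gene in each class was compared between Fracture and Control with the quasi-likelihood test of edgeR, adjusted by Benjamini-Hochberg over all genes tested in the class. Of 60 pairs of a member and a class 50 passed the filter on low counts, of which 20 fell, 4 rose and 26 were not called at an adjusted p under 0.05. Over all genes, 12553 rises and 11598 falls were called in 82879 pairs. Members gave fewer calls without a Fracture preparation and more without a Control preparation. Such fits leave 1 preparation in a group. The calls made or kept in the alternatives were not counted over all genes by class. The counts of members kept, given next, are therefore no result about the members. No called pair of a member and a class changed direction in the alternatives run, and 9 of the 24 calls held in all of them (Chrdl2, Bmper and Gdf10 in chondrocyte-like cells and Bmp5, Bmp6, Gdf10, Grem1, Chrdl1 and Bmper in BMSC-like cells).

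By class, BMSC-like cells held the most falls. There 8 of 9 tested members fell and 0 rose, where 21.6% of all genes tested fell and 21.2% rose, and the median log2 difference was -1.94 over the members against -0.02 over all genes. The members were chosen with earlier results of these data known, so their distance from all genes, here and below, is a description only. In fibroblast-like cells 5 of 10 fell (Bmp2, Bmp4, Bmp5, Bmp6 and Gdf10) and 0 rose, against 7.81% and 7.83% of all genes, with a median of -1.45 against 0.01. Markers moved in these cells too, with all 5 dpMSC (diaphyseal stromal cell) markers lower in both Fracture preparations (summed 1264 and 3247 CPM in Control, 282 and 326 CPM in Fracture), 5 of 7 fibroblast markers lower and 2 higher (15550 and 19190 against 5329 and 6056 CPM) and all 8 chondrocyte markers higher (1618 and 730 against 6935 and 6261 CPM). No marker of these lists was at 0 in every preparation, and their part in the members' falls was not tested. Chondrocyte-like cells went both ways, with 3 of 10 up (Bmp2, Chrdl2, Bmper) and 4 down (Bmp5, Gdf10, Nog, Chrdl1), against 19.6% up and 18.3% down over all genes and a median of 0.03 against 0.00. In chondrocyte-like cells all 6 hypertrophic markers were higher in both Fracture preparations (summed 12530 and 15320 CPM in Control, 28750 and 28970 CPM in Fracture), 3 of 5 mpMSC markers were higher (299 and 327 against 1391 and 1490 CPM), 4 of 5 dpMSC markers were lower (141 and 97 against 32.9 and 35.4 CPM) and the fibroblast markers summed to 1118 and 1080 against 269 and 307 CPM, with 5 of 7 higher and 1 lower. Their part in the members' values was not tested. In smooth muscle-like cells 2 of 4 tested members fell (Bmp2, Chrdl1) and 0 rose, against 10.7% and 11.3%. In osteoblast-like cells 1 of 8 fell (Grem1) and 0 rose, against 6.57% and 9.88%, and 4 members had an unadjusted p under 0.05. In endothelial-like cells 1 of 9 rose (Chrdl2) and 0 fell, against 18.4% and 16.4%.

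**Figure D2:**
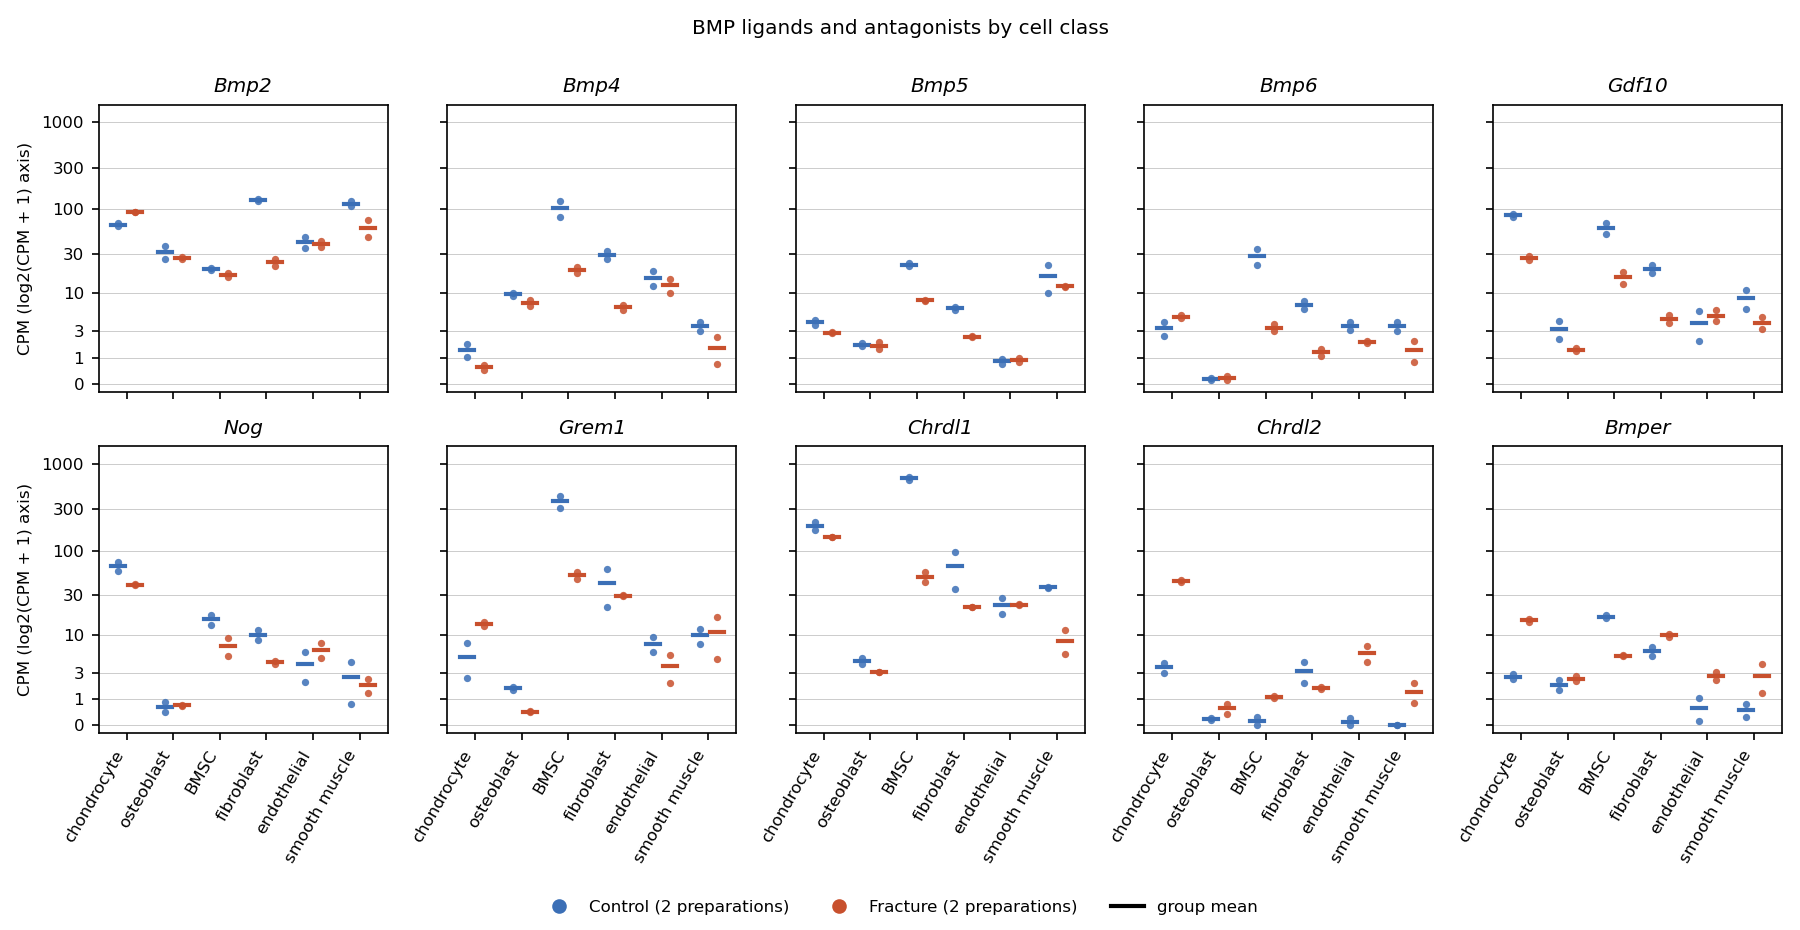
Level of each gene (y axis, CPM on a log2(CPM + 1) axis) in the 6 cell classes (x axis), with 1 point per preparation, Control in blue and Fracture in red, and a bar at the mean of 2 preparations. Chrdl1 and Grem1 stand highest in Control BMSC-like cells (648 and 714 CPM, and 314 and 429 CPM) and Chrdl2 in Fracture chondrocyte-like cells (45.1 and 42.8 CPM).

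Among the ligands, Bmp2, a strong inducer of bone and cartilage, was called higher in chondrocyte-like cells as a whole and lower in fibroblast-like and smooth muscle-like cells. In chondrocyte-like cells it was at 63.0 and 69.5 CPM in Control and at 91.7 and 92.0 CPM in Fracture, a rise of 0.47 ± 0.07 on the log2 scale (SE; edgeR, adjusted p = 0.00995). Both Fracture preparations lay above both Control preparations, but the call was lost without either Fracture preparation. No subclass of chondrocyte-like cells that was tested showed a called rise, as given below. Fibroblast-like cells held 124 and 131 CPM of Bmp2 in Control and 21.7 and 25.8 CPM in Fracture, a fall with a log2 difference of -2.43 ± 0.14 (adjusted p = 0.00698), and the groups did not overlap. In smooth muscle-like cells it fell from 109 and 123 CPM to 47.6 and 74.6 CPM (-0.91 ± 0.24, adjusted p = 0.0481), a call that was lost with another scaling of the libraries, without integration and without either Fracture preparation. Of 6 smooth muscle markers 5 were lower, and all 8 chondrocyte markers were higher, in both Fracture preparations of these cells. Their part in this fall was not tested. Bmp2 was at 37.2 and 26.4 CPM against 25.8 and 27.9 CPM in osteoblast-like cells and at 48.0 and 34.8 CPM against 42.3 and 36.1 CPM in endothelial-like cells, where the preparations of the groups overlapped. In BMSC-like cells the levels were 20.4 and 19.1 CPM against 17.6 and 15.9 CPM, and the difference did not pass the test (-0.24 ± 0.12, adjusted p = 0.175). In order of the Control means, fibroblast-like and smooth muscle-like cells came first, with ranges that nearly touched, then chondrocyte-like cells, and in Fracture chondrocyte-like cells came first. Bmp2 was also found in the left-over megakaryocyte-like cells of the blood, at 296 and 290 CPM in Control (3024 and 740 UMIs) and 250 and 167 CPM in Fracture (71 and 40 UMIs from 20 and 18 cells).

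Bmp4, a close relative of Bmp2, was highest in BMSC-like cells. There it fell from 81.0 and 123 CPM to 17.6 and 21.2 CPM (-2.40 ± 0.24, adjusted p = 0.00436), and the call was lost without Fracture replicate 1 (adjusted p = 0.0506). In fibroblast-like cells it fell from 25.8 and 32.4 CPM to 6.06 and 7.14 CPM (-2.10 ± 0.20, adjusted p = 0.0103). In endothelial-like cells it was at 18.6 and 12.2 CPM against 10 and 15 CPM, and the groups overlapped. In osteoblast-like cells it was at 10.1 and 9.25 CPM against 6.78 and 8.08 CPM, a difference that did not pass the adjusted threshold (-0.38 ± 0.13, adjusted p = 0.116). Chondrocyte-like cells held at most 1.87 CPM of it in any preparation.

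Bmp5 and Bmp6 belong to another branch of the BMP family. Bmp5 fell in BMSC-like cells from 21.4 and 23.3 CPM to 7.99 and 8.22 CPM (-1.46 ± 0.13, adjusted p = 0.0037). It fell in fibroblast-like cells from 6.56 and 6.13 CPM to 2.44 and 2.55 CPM (-1.35 ± 0.31, adjusted p = 0.0479), and in chondrocyte-like cells from 3.74 and 4.48 CPM to 2.94 and 2.83 CPM (-0.49 ± 0.14, adjusted p = 0.0495). The last of these calls was lost in 10 of 14 alternatives. The 5 falls in fibroblast-like cells, for Bmp2, Bmp4, Bmp5, Bmp6 and Gdf10, were all lost without either Fracture preparation. The fall of Bmp5 was also lost without Control replicate 1 (adjusted p = 0.156) and with a replicate block (adjusted p = 0.14), and that of Bmp6 with the block (adjusted p = 0.0673). In smooth muscle-like cells Bmp5 was at 10.0 and 22.3 CPM against 12.1 and 12.4 CPM, and the groups overlapped. Bmp6, a ligand known to raise hepcidin and to induce bone, fell in BMSC-like cells from 22.3 and 34.6 CPM to 2.997 and 3.85 CPM (-3.04 ± 0.30, adjusted p = 0.00414). It fell in fibroblast-like cells from 6.15 and 7.89 CPM to 1.52 and 1.09 CPM (-2.37 ± 0.38, adjusted p = 0.0241), on 24 UMIs over the Control and 33 over the Fracture group. In chondrocyte-like cells Bmp6 was at 2.56 and 4.11 CPM against 5.11 and 4.73 CPM, which did not pass the test (0.62 ± 0.23, adjusted p = 0.105).

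Gdf10, also called BMP3B, fell in 3 classes. In chondrocyte-like cells, where its Control level was highest, it fell from 87.9 and 82.0 CPM to 25.7 and 28.3 CPM (-1.65 ± 0.08, adjusted p = 0.00116). In BMSC-like cells it fell from 68.3 and 51.8 CPM to 12.99 and 18.4 CPM (-1.94 ± 0.23, adjusted p = 0.00576), and in fibroblast-like cells from 22.1 and 17.5 CPM to 4.04 and 5.17 CPM (-2.14 ± 0.24, adjusted p = 0.0131), where both Fracture values were below the 10.6 and 7.30 CPM of erythroid-like cells in Fracture. All 3 called comparisons were without overlap between the groups, which follows closely from the calls themselves. In endothelial-like cells Gdf10 was at 5.95 and 2.12 CPM against 4.22 and 5.97 CPM, with overlap.

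**Figure D3:**
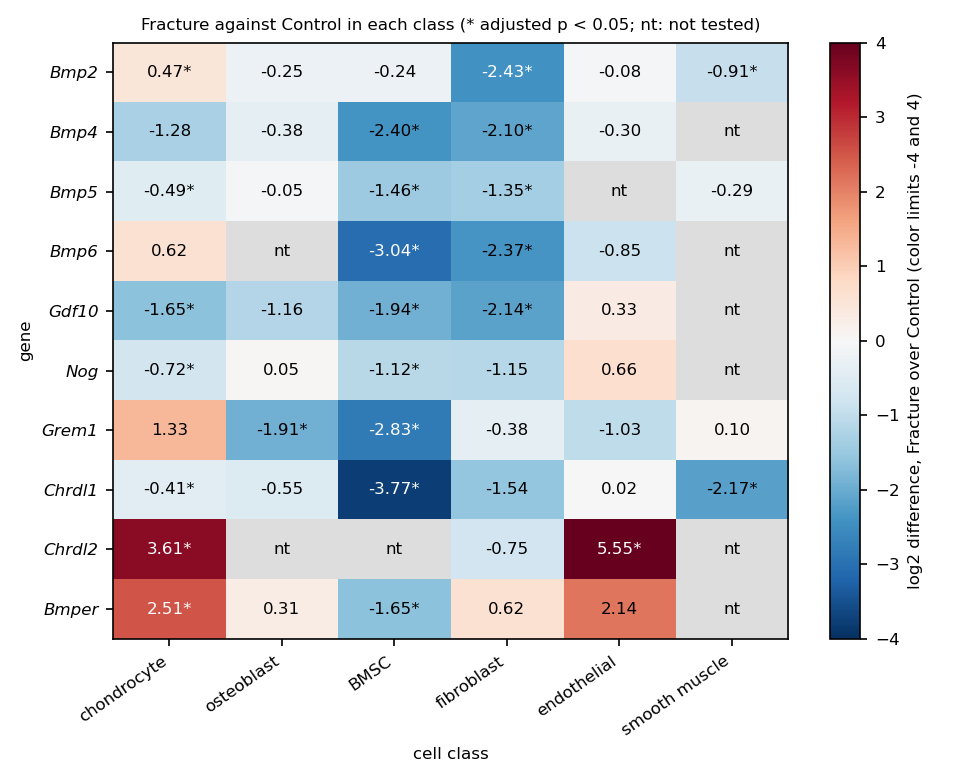
Log2 difference of Fracture over Control for each gene (y axis) in each class (x axis), from edgeR on 2 against 2 preparations, with red for higher and blue for lower in Fracture, an asterisk where the adjusted p was under 0.05 and nt where the gene was not tested. The BMSC-like column is blue for 8 asterisked genes, and Chrdl2 (3.61) and Bmper (2.51) are red in the chondrocyte-like column.

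Among the antagonists, Nog, which encodes noggin, a protein that covers the receptor-binding faces of BMPs, was highest in chondrocyte-like cells. There it fell from 74.7 and 58.0 CPM to 40.1 and 40.6 CPM (-0.72 ± 0.13, adjusted p = 0.0181). In BMSC-like cells it fell from 17.6 and 13.3 CPM to 8.99 and 5.25 CPM (-1.12 ± 0.31, adjusted p = 0.0419). Both calls were lost without either Fracture preparation. In fibroblast-like cells Nog was at 8.61 and 11.4 CPM against 4.13 and 4.51 CPM, which missed the threshold (-1.15 ± 0.28, adjusted p = 0.0538).

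Grem1, which encodes gremlin 1, an antagonist of BMP2, BMP4 and BMP7, was found in Control mainly in BMSC-like cells. It fell there from 314 and 429 CPM to 47.4 and 57.2 CPM (-2.83 ± 0.20, adjusted p = 0.00279), and both Fracture preparations lay below both Control preparations. It fell in osteoblast-like cells from 1.56 and 1.76 CPM to 0.462 and 0.411 CPM (-1.91 ± 0.29, adjusted p = 0.0196), on 9 UMIs in each Fracture preparation. This call was lost when called doublets were removed (log2 difference -0.98), without integration (-0.76) and without either Fracture preparation. Of 7 BMSC markers 5 were lower and 0 higher in both Fracture preparations of osteoblast-like cells (summed 194 and 115 CPM in Control, 46.4 and 58.4 CPM in Fracture), and their part in this low level of Grem1 was not tested. In chondrocyte-like cells Grem1 was at 7.79 and 2.46 CPM in Control and 14.2 and 12.7 CPM in Fracture. The Control preparations differed from each other by more than 3-fold there, and the difference did not pass the test (1.33 ± 0.51, adjusted p = 0.104). A rise was called by edgeR without integration (2.27, adjusted p = 0.0363) and at resolution 0.2 (1.82, adjusted p = 0.0467). The log2 difference was 2.45 without Control replicate 1 and 0.78 without Control replicate 2. In fibroblast-like cells it was at 21.7 and 61.3 CPM against 29.1 and 30.2 CPM, and the groups overlapped.

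Chrdl1, which encodes chordin-like 1 (ventroptin), showed the steepest fall of any member in a class. In BMSC-like cells it fell from 648 and 714 CPM to 43.2 and 56.3 CPM (-3.77 ± 0.17, adjusted p = 0.00201). In chondrocyte-like cells it fell from 213 and 173 CPM to 146 and 145 CPM (-0.41 ± 0.11, adjusted p = 0.0479), a small difference whose call was lost with no filter on low counts, with a replicate block and without either Fracture preparation. In smooth muscle-like cells it fell from 38.1 and 36.9 CPM to 11.3 and 5.53 CPM (-2.17 ± 0.35, adjusted p = 0.0147), a call that was lost without either Fracture preparation. In smooth muscle-like cells 4 of 5 dpMSC markers were also lower in both Fracture preparations (summed 1214 and 985 CPM in Control, 565 and 366 CPM in Fracture), as were 5 of 6 smooth muscle markers (37010 and 37000 against 21370 and 21670 CPM), while all 8 chondrocyte markers were higher (1640 and 413 against 4376 and 2678 CPM), and their part in the fall was not tested. In endothelial-like cells it was at 28.1 and 17.8 CPM against 23.5 and 23.2 CPM, with overlap. Erythroid-like cells of the same libraries, which are not known to make Chrdl1, held 24.2 and 35.9 CPM of it in Fracture and 10.7 and 1.77 CPM in Control (not TMM-scaled). Both Fracture values of BMSC-like cells lay above the Fracture values of erythroid-like cells, while those of smooth muscle-like cells lay below them. Basophil or mast-like cells held 6.22 and 10.8 CPM in Fracture and 10.9 and 3.91 CPM in Control. In fibroblast-like cells Chrdl1 was at 35.3 and 97.3 CPM against 21.8 and 21.7 CPM, which did not pass the test (adjusted p = 0.0875), and both Fracture values were below those of erythroid-like cells.

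Chrdl2, which encodes chordin-like 2, was nearly absent in Control and rose in chondrocyte-like cells. It went from 3.03 and 4.26 CPM (98 and 57 UMIs) to 45.1 and 42.8 CPM (3817 and 4069 UMIs), a log2 difference of 3.61 ± 0.19 (adjusted p = 0.00135), and over all cells outside the blood from 1.26 and 1.16 CPM to 28.7 and 26.3 CPM, or 22.8-fold higher. In fibroblast-like cells it was at 2.05 and 4.38 CPM against 1.77 and 1.602 CPM, which did not pass the test. In endothelial-like cells it rose from 2 UMIs over the group to 135 UMIs, a ratio of 46.3 (95% counting interval 12.6 to 386, which covers counting error only; edgeR adjusted p = 0.0126). There it reached 7.16 and 4.36 CPM in Fracture, below the 10.1 and 9.55 CPM of erythroid-like cells of the same libraries. All 8 chondrocyte markers were higher in both Fracture than in both Control preparations of the endothelial-like cells, their summed level being 3003 and 1207 CPM in Control and 15740 and 15440 CPM in Fracture, and in erythroid-like cells it was 2067 and 236 against 27920 and 24710 CPM. None of the 8 markers was at 0. When subclusters led by markers of another class were removed, too few Chrdl2 UMIs were left among endothelial-like cells for a test. The part of these transcripts in the endothelial-like value was not tested further, and its call was lost without either Fracture preparation. In BMSC-like cells 4 and 0 UMIs of Chrdl2 were found in Control and 6 and 6 in Fracture.

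Bmper rose in 1 class and fell in another. The rise was in chondrocyte-like cells, with 2.84 and 2.39 CPM in Control and 15.7 and 14.5 CPM in Fracture (2.51 ± 0.12, adjusted p = 0.00116). In BMSC-like cells it fell from 16.1 and 17.4 CPM to 5.195 and 5.42 CPM (-1.65 ± 0.15, adjusted p = 0.00389), so that BMSC-like cells held more of it than chondrocyte-like cells in both Control preparations and less in both Fracture preparations. In fibroblast-like cells it was at 6.97 and 5.26 CPM against 10.3 and 9.46 CPM (0.62 ± 0.25, adjusted p = 0.156). In endothelial-like cells 10 and 1 UMIs were found in Control and 34 and 30 in Fracture, which did not pass the test (adjusted p = 0.0791).

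BMSC-like cells held 2 named subclasses, whose shares were further apart between the groups than between preparations. A further 4.14% and 2.51% of BMSC-like cells in Control and 23.1% and 23.2% in Fracture lay in neither. Diaphyseal (dpMSC-like) cells, which carry Esm1, Adipoq, Lepr, Cxcl12 and Kitl, made up 63.1% and 70.6% of BMSC-like cells in Control and 5.74% and 8.996% in Fracture. For its own decrease of dpMSCs the paper proposes that the pin, by blocking some of the marrow, might be the reason. That was not tested here. Metaphyseal (mpMSC-like) cells, which carry 4 of 5 markers (Hey1, Mmp13 and others), made up 32.7% and 26.9% in Control and 71.1% and 67.8% in Fracture. Within mpMSC-like cells 8 of 9 tested members fell, the same 8 as in the whole class, and 0 rose, where 11% of all genes tested fell and 12.9% rose. Chrdl1 fell there from 95.9 and 70.2 CPM to 8.49 and 7.48 CPM (-3.38 ± 0.20, adjusted p = 0.00269), to below the 24.2 and 35.9 CPM of erythroid-like cells in Fracture, and Gdf10 from 126 and 122 CPM to 10.9 and 16.9 CPM (-3.15 ± 0.21, adjusted p = 0.00286). Nog fell from 26.3 and 27.8 CPM to 7.58 and 4.16 CPM (-2.21 ± 0.27, adjusted p = 0.0084), and both Fracture values were below the 7.92 and 8.70 CPM of erythroid-like cells in Fracture. Bmper fell by 1.90, Bmp4 by 1.87, Bmp6 by 1.55, Bmp5 by 1.36 and Grem1 by 0.68 on the log2 scale, the last from 51.6 and 60.1 CPM to 38.2 and 31.6 CPM. The groups did not overlap for any of the 8, which follows closely from their being called and adds no support of its own. The fall of Grem1 was lost with a replicate block (adjusted p = 0.0576) and that of Bmp6 with DESeq2 (adjusted p = 0.0819). Without either Fracture preparation those of Bmp4, Bmp5, Bmp6, Grem1 and Bmper were lost. These fits leave 1 Fracture preparation and called far fewer genes of any kind than the main fit in mpMSC-like cells. The losses are therefore no result about the members.

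dpMSC-like cells were the richest source of several members, but only 35 and 60 of them were left in the Fracture preparations. Grem1 was at 576 and 657 CPM in Control and at 364 and 446 CPM in Fracture, and Chrdl1 at 1200 and 1104 CPM against 434 and 614 CPM. Bmp4 was at 134 and 180 CPM against 145 and 193 CPM, and Bmp5 at 27.3 and 27.6 CPM against 28.0 and 25.6 CPM. No member was called in dpMSC-like cells by edgeR, where of 12360 genes tested 0% rose and 0% fell, 2073 genes had an unadjusted p under 0.05 and DESeq2 called 455 rises and 204 falls. Other edgeR fits did make calls over all genes in these cells, with 164 rises and 101 falls with a replicate block, 249 and 214 without Control replicate 1, 114 and 10 without Control replicate 2, and at most 16 rises and 2 falls in the rest. Chrdl1 was called lower in dpMSC-like cells with the block (-1.15, adjusted p = 0.0147), without Control replicate 1 and with DESeq2, and DESeq2 also called Grem1 lower and Nog higher. Of the 15 falls called by subclass the block lost 3 (Gdf10 in hypertrophic, Grem1 in mpMSC-like and Chrdl1 in Chi3l1-led cells) and added 2 (Chrdl1 in dpMSC-like and Bmp4 in Chi3l1-led cells). At an unadjusted p under 0.05, 3 members were lower in Fracture (Chrdl1, Grem1 and Bmp6) and 2 higher (Nog and Bmp2). The Fracture values rest on 6 and 11 UMIs for Nog, 6 and 6 for Bmp6 and 13 and 11 for Bmp2. Whether the effect differed between the subclasses was not tested. The sums of BMSC-like cells therefore join levels within mpMSC-like and within dpMSC-like cells, where Chrdl1, Grem1 and Bmp6 were lower in both Fracture than in both Control preparations, with a smaller part of dpMSC-like cells and a larger part of cells in neither subclass, which cannot be told apart in the value for the whole class. BMSC markers moved too, with all 7 lower in both Fracture preparations of BMSC-like cells (summed 27030 and 28160 CPM in Control, 3121 and 3615 CPM in Fracture), as were all 7 in mpMSC-like cells (8634 and 8143 CPM against 2270 and 2394 CPM). All 8 chondrocyte markers were higher in both Fracture preparations of BMSC-like cells (2563 and 621 against 7030 and 7121 CPM) and of mpMSC-like cells (836 and 684 against 2264 and 2103 CPM), and all 6 hypertrophic markers were higher in BMSC-like cells (7263 and 7096 against 14390 and 13130 CPM). The part of these markers in the members' values was not tested.

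**Figure D4:**
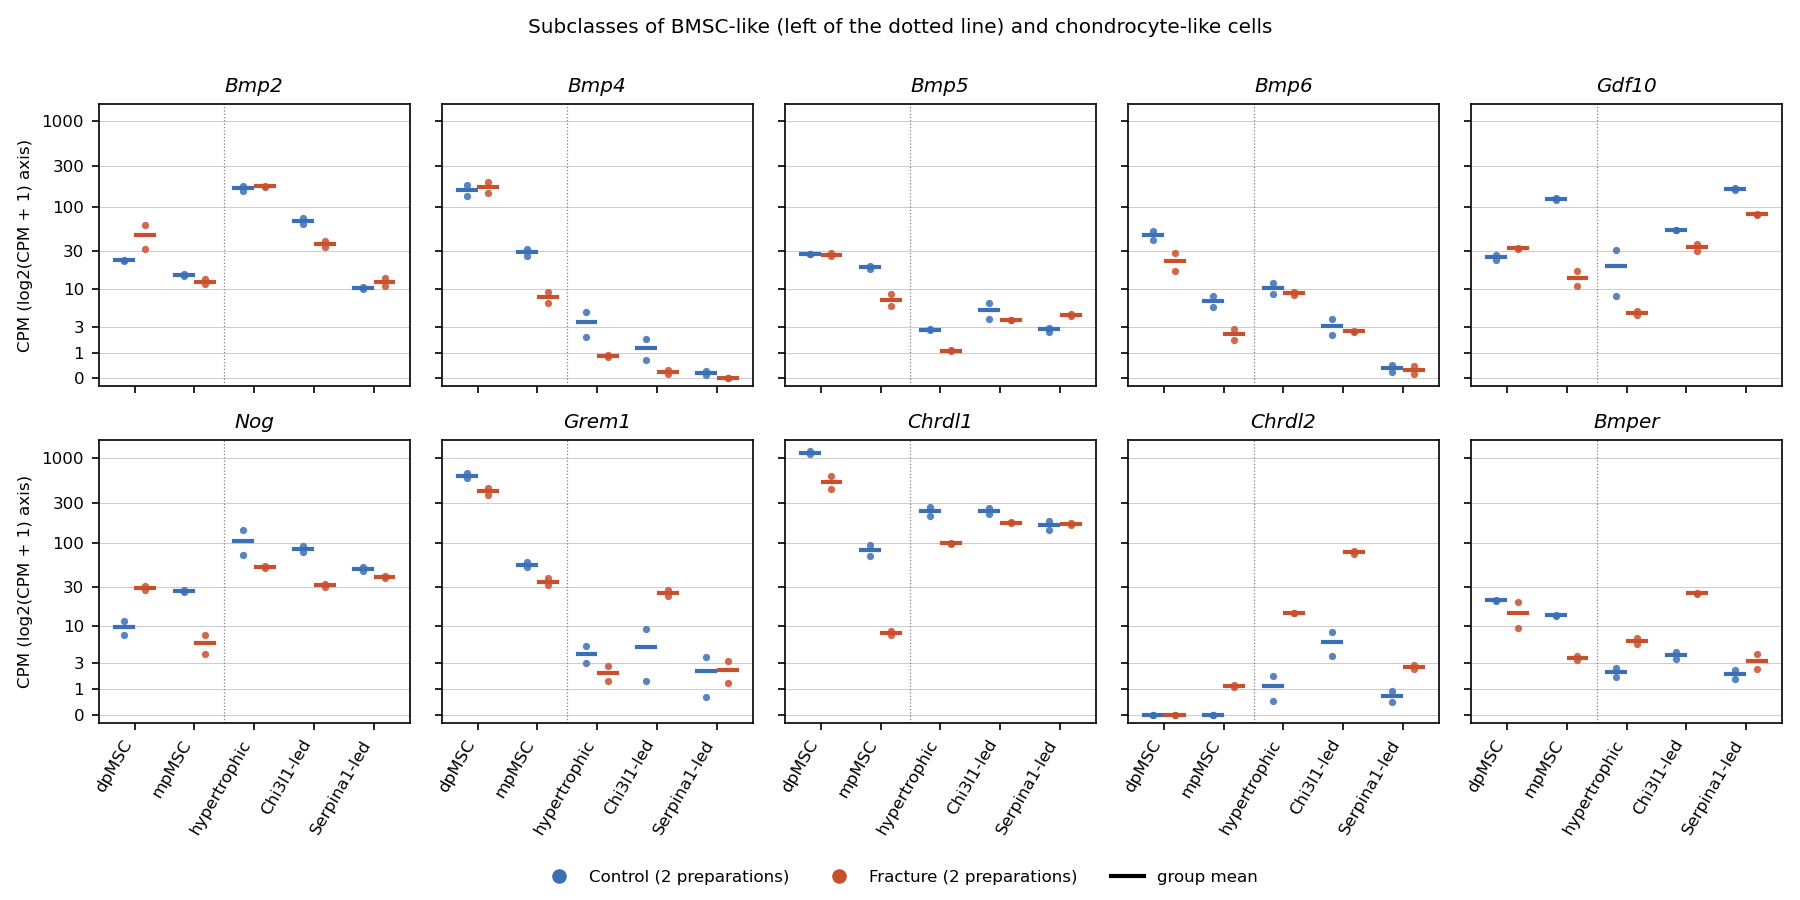
Level of each gene (y axis, CPM on a log2(CPM + 1) axis) in 2 subclasses of BMSC-like cells (left of the dotted line) and 3 of chondrocyte-like cells (right), with 1 point per preparation, Control in blue and Fracture in red, and a bar at the mean of 2 preparations. Bmp2 stands highest in hypertrophic cells of both groups (154 to 176 CPM), and Chrdl2 in Chi3l1-led cells of the Fracture group (80.8 and 75.0 CPM).

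The chondrocyte-like class held a hypertrophic subclass (Col10a1, Ihh), a subclass called Chi3l1-led here and a subclass led, against all cells, by Serpina1a, Serpina1d and Serpina1b. The marker rule named the Chi3l1-led cells superficial or articular chondrocyte, with 3 of 5 markers carried, and that name was not used here. It left the Serpina1-led cells unnamed. A cycling subclass (175 and 44 cells in Control, 355 and 375 in Fracture) was not tested. With it, 13.1% and 10.3% of chondrocyte-like cells in Control and 6.19% and 6.31% in Fracture lay outside these 3. Against all cells the genes highest by fold in Chi3l1-led cells were Chrdl2, itself a member and kept out of the clustering, then Car8, Chi3l1 and Sfrp5, and against the other chondrocyte-like cells they were Fndc1, Itgbl1, Slc40a1 and Car8. Hypertrophic cells made up 12.8% and 17.2% of chondrocyte-like cells in Control and 39.3% and 38.3% in Fracture, while Serpina1-led cells made up 34.1% and 36.4% in Control and 10.9% and 10.7% in Fracture. Bmp2 was highest in hypertrophic cells and nearly level between the groups, at 154 and 176 CPM in Control and 176 and 171 CPM in Fracture (0.07 ± 0.11, adjusted p = 0.692). In Chi3l1-led cells Bmp2 fell from 72.8 and 62.5 CPM to 32.9 and 39.2 CPM (-0.91 ± 0.13, adjusted p = 0.0114), against the direction of the whole class, and in Serpina1-led cells it was at 10.7 and 10.0 CPM against 10.9 and 13.8 CPM. The rise of Bmp2 over the whole class was not called in any of these 3 subclasses. The value of Bmp2 for the whole class joins its levels within subclasses with the larger part of hypertrophic cells, which cannot be told apart in it.

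Chrdl2 rose in hypertrophic cells from 1.83 and 0.450 CPM to 14.5 and 14.6 CPM (3.41 ± 0.30, adjusted p = 0.00509) and in Chi3l1-led cells from 3.92 and 8.33 CPM to 80.8 and 75.0 CPM (3.73 ± 0.37, adjusted p = 0.00482). Bmper rose in Chi3l1-led cells from 4.39 and 3.54 CPM to 25.7 and 24.5 CPM (2.63 ± 0.13, adjusted p = 0.00132), and in hypertrophic cells it was at 2.52 and 1.80 CPM against 6.90 and 5.64 CPM (adjusted p = 0.0522). Grem1 was at 9.087 and 1.458 CPM in Control and 27.35 and 23.25 CPM in Fracture in Chi3l1-led cells. That difference did not pass the test (2.09 ± 0.635, adjusted p = 0.0704), and was called by edgeR with no filter on low counts (2.14, adjusted p = 0.029). Gdf10 was called lower in all 3 subclasses. Its level was highest in Serpina1-led cells, with 164 and 156 CPM in Control and 81.2 and 80.9 CPM in Fracture (-0.98 ± 0.07, adjusted p = 0.00532), while in Chi3l1-led cells it fell from 52.6 and 53.3 CPM to 29.97 and 36.1 CPM and in hypertrophic cells from 30.9 and 8.09 CPM to 4.45 and 5.18 CPM (-2.21 ± 0.47, adjusted p = 0.0401). In hypertrophic cells the Gdf10 call was lost without Control replicate 1, where the log2 difference was -0.71, without either Fracture preparation and with a replicate block. The value of Gdf10 for the whole class joins these falls with the smaller part of Serpina1-led cells, which cannot be told apart in it. Nog fell in Chi3l1-led cells from 93.2 and 79.5 CPM to 30 and 33.1 CPM (-1.45 ± 0.11, adjusted p = 0.00274), and in hypertrophic cells it was at 141 and 73.3 CPM against 53.4 and 50.2 CPM (adjusted p = 0.0789). Chrdl1 fell in hypertrophic cells from 269 and 211 CPM to 100.4 and 99.0 CPM (-1.27 ± 0.14, adjusted p = 0.00866) and in Chi3l1-led cells by 0.46 on the log2 scale, while in Serpina1-led cells it was at 182 and 145 CPM against 170.5 and 164 CPM, with overlap. The call of Chrdl1 in Chi3l1-led cells was lost with a replicate block (adjusted p = 0.0561). Without either Fracture preparation the calls of Chrdl2 and Chrdl1 in hypertrophic cells and of Gdf10 in Serpina1-led cells were lost. So were those of Bmp2, Gdf10 and Chrdl1 in Chi3l1-led cells, and without Fracture replicate 1 that of Chrdl2 there (log2 difference 3.635). These fits leave 1 Fracture preparation and called far fewer genes of any kind than the main fit in all 3 subclasses. The losses are therefore no result about the members. In all, 1 member rose and 2 fell of 10 tested in hypertrophic cells (6.94% and 7.89% of all genes), 2 rose and 4 fell of 10 in Chi3l1-led cells (14.9% and 13.1%), and 0 rose and 1 fell of 8 in Serpina1-led cells (4.89% and 2.05%). Over the 5 subclasses the members gave 15 falls and 3 rises. Members gave fewer calls without a Fracture preparation and more without a Control preparation. Over all genes, too, fewer calls were made without a Fracture preparation in every subclass but dpMSC-like cells.

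The fracture effect was then compared among the 6 classes in a single model with the preparation as a block. For all 10 members the effect differed among classes (edgeR, F test of the class-by-group terms, adjusted p between 1.3e-07 for Bmper and 0.00943 for Nog), where 56.6% of all genes tested did so. Across classes the log2 difference of Bmper ran from -1.65 (BMSC-like) to 2.51 (chondrocyte-like), that of Bmp2 from -2.43 (fibroblast-like) to 0.47 (chondrocyte-like) and that of Grem1 from -2.83 (BMSC-like) to 1.33 (chondrocyte-like). The smallest span was that of Bmp5, from -1.46 (BMSC-like) to -0.05 (osteoblast-like). These are values of whole classes, and the subclass make-up of BMSC-like and chondrocyte-like cells differed between the groups. When subclusters led by markers of another class were removed, 8 members were called, without Gdf10 (adjusted p = 0.0559) and Nog (adjusted p = 0.0749).

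Shares of cells with at least 1 UMI were compared after cells had been thinned to 1000 UMIs, since depth differed between the groups. Erythroid-like cells were planned as the class that should lack these genes, but chondrocyte markers were high in them in Fracture, as given above. Shallower cells were left out, all of them in Control, at most 80 of a class in replicate 1 (63 BMSC-like, 24 chondrocyte-like and 24 erythroid-like) and at most 12 in replicate 2. Of BMSC-like cells, 46.4% and 46.7% held a Chrdl1 UMI in Control and 2.62% and 5.10% in Fracture, and 26.8% and 32.9% held a Grem1 UMI against 4.43% and 4.35%. In erythroid-like cells the Chrdl1 share was 0.919% and 0.170% in Control and 2.62% and 2.74% in Fracture. In Fracture the BMSC-like share was the same after rounding in preparation 1 (2.62%) and higher in preparation 2 (5.10%). The chondrocyte markers summed to 27920 and 24710 CPM in erythroid-like and to 7030 and 7121 CPM in BMSC-like cells of the Fracture group. The erythroid-like shares are given beside the others as a comparison only. The part of such transcripts in these shares was not tested. The erythroid-like share with a Grem1 UMI was 0.368% and 0% in Control (the latter 0 of 1764 cells, which allows a share of up to 0.17%) and 0.873% and 0.304% in Fracture, below the BMSC-like shares. Without thinning the BMSC-like shares of Chrdl1 were 68.1% and 72.8% against 12.1% and 15.3%, at median depths of 5860 and 7543 UMIs, and the erythroid-like shares 4.05% and 1.92% against 12.2% and 12.5%, at 6250 and 7812 UMIs. Of chondrocyte-like cells, 0.183% and 0.271% held a Chrdl2 UMI in Control and 3.04% and 2.68% in Fracture (3.16% and 2.98% against 18.2% and 19.0% without thinning), against 0.873% and 0% of erythroid-like cells in Fracture (the latter 0 of 329 cells, which allows a share of up to 0.912%). The share with a Gdf10 UMI was 7.95% and 6.78% against 2.35% and 2.42% in chondrocyte-like cells, and that with a Bmp2 UMI 5.30% and 6.51% against 6.57% and 6.03%, with overlap. In erythroid-like cells these shares were 0.368% and 0.0567% against 1.31% and 0.304% for Gdf10 and 0.919% and 0.0567% against 0.437% and 0.304% for Bmp2, below the chondrocyte-like shares of the same preparations. An exact two-sided permutation test of 2 against 2 preparations cannot go below p = 0.3333 for any of these shares.

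The wider pathway was described with 49 further genes, all of which were in the tables. In chondrocyte-like cells 15 of 45 tested rose and 10 fell, against 19.6% and 18.3% of all genes (median log2 difference 0.04 against 0.00). All 3 feedback inhibitors rose there, among them Bambi, a pseudoreceptor, from 90.9 ± 1.7 to 302 ± 7 CPM (SD, n = 2), and of 5 other ligands tested 4 fell, Bmp7 from 46.1 ± 7.9 to 9.62 ± 0.25 CPM, while Gdf5, a ligand of developing joints, rose from 4.06 ± 0.49 to 10.9 ± 0.1 CPM. Smoc2, a secreted modulator, rose from 121 ± 2 to 669 ± 8 CPM, the co-receptor gene Rgma fell by 1.604 and the target gene Id4 by 1.52 on the log2 scale. The 7 target genes tested in chondrocyte-like cells went both ways, with 2 called higher (Atoh8 and Id3) and 3 lower (Id4, Msx1 and Msx2). Id1 and Id2 were not called there, and Id3 rose from 234 ± 8 to 510 ± 11 CPM. In BMSC-like cells 6 of 38 rose and 11 fell, against 21.2% and 21.6% of all genes (median -0.23 against -0.02). Of 12 other antagonists and modulators tested there 5 fell and 4 rose. Among those that fell were Fst, which encodes follistatin, from 314 ± 49 to 55.0 ± 1.9 CPM, Smoc1 from 91.4 ± 16.2 to 13.8 ± 1.2 CPM and Crim1 from 106 ± 16 to 22.2 ± 4.2 CPM. Among those that rose were Smoc2, from 19.2 ± 2.1 to 76.5 ± 16.2 CPM, and Nbl1, from 18.8 ± 6.0 to 42.9 ± 1.0 CPM, and outside this group Bambi rose from 55.8 ± 15.9 to 202 ± 13 CPM. Of 9 receptors and co-receptors tested there 4 fell and 0 rose.

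In endothelial-like cells 11 of 37 tested rose and 11 fell, against 18.4% and 16.4% of all genes (median 0.11 against 0.01). Of 6 target genes tested 4 fell, the Id genes Id1, Id2, Id3 and Id4, and 0 rose, with Msx1 and Atoh8 not called, and Id4 went from 31.6 ± 2.6 to 9.57 ± 0.22 CPM. Smad6 fell from 48.0 ± 9.7 to 23.1 ± 1.1 CPM, and Acvrl1, the endothelial receptor for BMP9 and BMP10, from 182 ± 10 to 90.2 ± 1.8 CPM. In the same cells 5 of 6 endothelial markers were lower in both Fracture preparations (summed 8151 and 7748 CPM in Control, 6143 and 6207 CPM in Fracture), and arterial endothelial-like cells numbered 496 of 1652 and 309 of 1267 in Control and 110 of 1220 and 163 of 1413 in Fracture. Sinusoidal endothelial-like cells numbered 197 and 224 in Control and 58 and 67 in Fracture. Cells in subclusters led by markers of another class numbered 91 and 40 in Control and 279 and 267 in Fracture. Smoc2 (6.13 ± 2.84 to 116 ± 17 CPM), Bmp8a and Bmp1 rose in these cells, while chondrocyte markers were higher in these cells after fracture, as given above. The part of these markers and of this make-up in the values that rose or fell was not tested. In fibroblast-like cells 4 of 41 rose and 5 fell, against 7.83% and 7.81% of all genes (median -0.21 against 0.01). Gdf6 fell from 11.7 ± 3.2 to 0.109 ± 0.154 CPM, Id4 from 20.5 ± 8.2 to 3.55 ± 0.02 CPM and Msx1 from 59.8 ± 4.1 to 16.8 ± 0.02 CPM, and Smoc1, Fst and Smad1 rose by 1.37, 0.92 and 0.67 on the log2 scale. In osteoblast-like cells 7 of 39 rose and 3 fell, against 9.88% and 6.57% of all genes (median 0.12 against 0.00), with Bmp3, a ligand made by osteoblasts, falling from 191 ± 3 to 83.1 ± 0.06 CPM, Nbl1 by 0.51 and Bmp7 by 0.44 on the log2 scale, and Smad7 rising from 38.2 ± 8.2 to 84.7 ± 4.4 CPM, Eng by 0.89 and Id2 by 0.72. The osteoblast markers of these cells summed to 107000 and 124300 CPM in Control and 45260 and 58430 CPM in Fracture (3 of 7 lower and 3 higher), and the hypertrophic markers to 6538 and 6779 against 11120 and 11210 CPM (5 of 6 higher), and their part was not tested. In smooth muscle-like cells 4 of 33 rose and 4 fell, against 11.3% and 10.7% of all genes (median -0.28 against 0.00). Crim1 fell from 382 ± 39 to 118 ± 27 CPM, Smoc1 by 1.64 and Acvr2b by 1.35 on the log2 scale, and Bmp1, Fstl1 and Eng rose by 1.65, 1.23 and 1.05.

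Finally, genes with a like pattern were sought over 24 points (6 classes in 4 preparations) among 12566 other genes by Pearson's r of log2(CPM + 1). Points of a preparation share libraries and points of a class share cell type, so r is a description. Chrdl1 and Gdf10 were nearest to each other among the members, with r = 0.92 (the second nearest gene of Gdf10, after Osbpl1a, and the nearest of Chrdl1, before Zfp395). The nearest genes were Fam20b (0.97) and Slc35e3 (0.94) for Nog, Fgf7 (0.95) and Ptgfr (0.93) for Grem1, and Asph (0.94) and Hoxa9 (0.94) for Bmp5. They were Zim1 (0.92) and Aldoc (0.91) for Chrdl2, Foxn3 (0.89) and Xdh (0.89) for Bmp4, Lmo4 (0.89) and Htatip2 (0.86) for Bmper, and Cystm1 (0.87) and Btbd3 (0.84) for Bmp2. Among the members, Bmp4 and Bmp2 had r = -0.45 and Bmp4 and Chrdl2 r = -0.50.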

How the data were processed

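Stromal cells of femurs were profiled with 10x 3′ v3 chemistry. The authors deposited 8 tables of counts (UMIs per gene and barcode, not normalised). Per the labels, bcl2fastq 2.19.1.403, UMI-tools 1.0.0, STAR 2.7.3a and featureCounts 1.6.4 were used with mm10, while the study's methods name fastp, STARsolo and EmptyDrops, and which of these made the tables was not settled. Cells with 500 to 6000 genes and at most 25% mitochondrial UMIs were kept, along with genes found in at least 3 cells. Called doublets (722 cells, 1.593%) were kept in the main fits and removed in an alternative. Clusters came from Seurat 5.3.0 (reciprocal PCA integration in place of the planned canonical correlation, which needed more memory than was available, and resolution 0.1) without the members, pathway genes and cell cycle genes, and took the name of a list of which they carried at least 3 markers. The Chi3l1-led and Serpina1-led subclasses were named otherwise, as given above. UMIs of both libraries of a preparation were summed per class and tested with edgeR 4.0.16 (quasi-likelihood, filterByExpr, TMM, Benjamini-Hochberg over all genes of a class, threshold 0.05). The SE was the log2 difference over the square root of F. Alternatives used DESeq2 1.42.0, other scaling, filters, clustering and left-out preparations. Code was tested on simulated data. CPM of blood classes, summed markers, values over all cells outside the blood, the ratio with a counting interval and the values behind r were not TMM-scaled.

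The members, lists and comparisons were chosen with earlier results of these data known. All 10 members are named in every class, and of the pathway list the 3 called genes with the largest rise and fall per class (mean of at least 5 CPM, no overlap of preparations), and for likeness the 2 nearest genes (those of Bmp6 are not reported here). Genes named beyond that were chosen after their values were seen. Libraries of a preparation shared 13 to 23 barcodes and those of different preparations 10 to 20. The preparation numbers did not pair samples (correlation of deviations 0.0113 to 0.072). Library totals ran from 56543151 to 89126291 UMIs, and intervals cover counting error only.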

Additional observations from a re-analysis of the deposited data

Results flagged for a closer look

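The effect of fracture differed among the 6 classes for all 10 members (edgeR, F test of the class-by-group terms, n = 2 preparations per group). The sums of all 6 classes entered this test for every member. Some of these classes held too few UMIs of a member for a test within the class. Within single classes Chrdl2 was tested in 3, Bmp6 in 4 and the others in 5 or 6. The adjusted p of the F test was 1.04e-06 for Bmp2, 8.12e-05 for Bmp4, 0.00141 for Bmp5, 4.21e-07 for Bmp6 and 0.000272 for Gdf10. Among the antagonists the adjusted p was 0.00943 for Nog, 2.91e-05 for Grem1, 6.11e-07 for Chrdl1, 0.00331 for Chrdl2 and 1.3e-07 for Bmper by the same edgeR test, where 56.6% of all genes were called. With subclusters led by markers of another class removed, Gdf10 (adjusted p = 0.0559) and Nog (adjusted p = 0.0749) were not called. The call of Bmp5 was lost without either Fracture preparation, and those of Gdf10 and Nog without Fracture replicate 2.

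Members were also found in the erythroid-like cells, which entered no test between the groups, at a higher level in both Fracture than in both Control preparations. The mean Fracture level was 15.6 CPM for Bmp2, 8.93 CPM for Gdf10, 8.31 CPM for Nog, 3.08 CPM for Grem1, 30.1 CPM for Chrdl1, 9.84 CPM for Chrdl2 and 3.08 CPM for Bmper. The summed chondrocyte markers in these cells were 2067 and 236 CPM in Control and 27920 and 24710 CPM in Fracture, and their part in the members' levels was not tested.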

How the results depend on the processing

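Leaving out a preparation moved the counts of calls most. Over these 4 settings the member pairs ran from 2 to 9 rises and 7 to 29 falls by class, from 1 to 6 rises and 4 to 19 falls by subclass, and the pathway list from 4 to 72 rises and 9 to 71 falls (main 47 and 44). With 1 preparation left in a group, that preparation is assumed to vary like the other group. By subclass, members gave 6 rises with no filter on low counts and 5 with the DESeq2 Wald test, against 3. With preparation number as a replicate block the members gave 4 rises and 17 falls by class, against 4 and 20, and 3 and 14 by subclass. Of the class-by-group tests, 7 members were called without Fracture replicate 2 and 9 without Fracture replicate 1. Directions reversed only for uncalled pairs and for 2 shares of cells. Without integration Bmp4 in chondrocyte-like cells went to 0.62 and Chrdl1 in osteoblast-like cells to 0.19 (log2). With mixed subclusters removed, an alternative chosen after seeing the data, endothelial-like Gdf10, Nog and Chrdl1 went to -0.89, -0.87 and -0.54. Chrdl1 there was -0.0448 in cells with at least 3000 UMIs, where dpMSC-like Bmp5 was 0.013, Grem1 in smooth muscle-like cells was -0.0333 under the replicate block, and Grem1 in Serpina1-led cells was 0.0008 by DESeq2. Without single preparations the log2 difference ran from -0.47 to 0.022 for Bmp2 in osteoblast-like, -0.31 to 0.17 for Bmp2 in endothelial-like, -0.61 to 0.046 for Bmp4 in endothelial-like, -0.29 to 0.14 for Bmp5 in osteoblast-like, -0.85 to 0.29 for Bmp5 in smooth muscle-like, -0.22 to 1.28 for Gdf10 in endothelial-like. It ran from -0.3303 to 0.75 for Nog in osteoblast-like, -1.03 to 0.46 for Grem1 in fibroblast-like, -1.04 to 0.73 for Grem1 in smooth muscle-like, -0.28 to 0.39 for Chrdl1 in endothelial-like, -0.14 to 0.38 for Bmp4 in dpMSC-like, -0.13 to 0.0095 for Bmp5 in dpMSC-like, -0.43 to 0.028 for Bmp6 in hypertrophic chondrocyte-like, -0.63 to 0.21 for Bmp6 in Chi3l1-led chondrocyte-like, -0.85 to 1.86 for Grem1 in Serpina1-led chondrocyte-like, -0.12 to 0.21 for Chrdl1 in Serpina1-led chondrocyte-like. The difference in the share of cells with a UMI ran from -0.21 to 1.00 percentage points for Bmp2 in chondrocyte-like cells and from -3.25 to 0.93 for Bmp4 in fibroblast-like cells. The cause was not tested.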
